A study of Homo sapiens with 2 samples.

Results

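The replication-dependent histone clusters are the stretches of human chromosomes 6 and 1 that carry most genes for the canonical histones H1, H2A, H2B, H3 and H4. They were taken here by position in the assembly GRCh37: the first part of HIST1 at chr6:26000000-26300000, the second part of HIST1 at chr6:27700000-27880000, and HIST2 at chr1:149780000-149870000. A deposited list of chromatin immunoprecipitation peaks held 46 summits in these stretches, with 19 in the first part of HIST1, 14 in the second part and 13 in HIST2, out of 105629 nuclear summits in all. A summit is the 1 bp position that the peak caller gave for a peak. The members were chosen by position alone, and no score entered the choice.

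The cells were A549, an established human lung adenocarcinoma line, with Myocardin (MYOCD) stably overexpressed from the vector pWPI and grown in DMEM with 10% FBS. Chromatin of this 1 stable line was precipitated with anti-Myocardin in one library and with IgG in the other, and both libraries therefore carry the overexpression. There was 1 library per antibody and no replicate. The list names no antibody for any summit, so the precipitations could not be compared, and each interval given for a count or a share covers counting error only and treats summits as independent.

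Replication-dependent histone genes are short and intronless, and they are transcribed in S phase to supply the octamer of H2A, H2B, H3 and H4 and the linker histone H1 for newly made DNA. Their transcripts end in a stem-loop in place of a poly(A) tail, and their transcription is gathered in nuclear histone locus bodies. Myocardin, a coactivator known from smooth muscle and heart, is brought to DNA by the serum response factor, which reads the CArG box, an AT-rich core between a CC and a GG. Histone clusters are thus a dense and highly transcribed part of the genome of dividing cells, and not a group of known smooth muscle targets.

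No genome of GRCh37 was used here, so the bases under the summits are not shown, and no summit is assigned to a histone gene. The genes were instead described from the RefSeq gene and promoter tables of GRCh38.p14, whose positions must not be set against those of the summits. Histone genes were taken as genes of chromosomes 6 and 1 whose symbols begin with H1-, H2AC, H2BC, H3C or H4C and a number. Other histone symbols, such as H3-3A of chromosome 1, were left out. By gene order, the 68 protein-coding genes of this set fell into runs with at most 3 other genes between neighbours. The longest run of chromosome 6, from H1-1 to H4C8, held 32 protein-coding histone genes: 5 for H1, 4 for H2A, 8 for H2B, 7 for H3 and 8 for H4. The last run of that chromosome, from H4C10P to H2BC17, held 16, and the main run of chromosome 1, from H2BC18 to H2AC21, held 11. The set also includes H2AC25 and H2BC26, which lie on chromosome 1 beyond 759 other protein-coding genes after that main run. A small run of 5 genes from H2BC11 to H2AC12 lay between both large runs of chromosome 6, with ABT1 and ZNF322 as the nearest other protein-coding genes on one side and PRSS16 and POM121L2 on the other. The sequence between the HIST1 parts, used below as a comparison, is therefore not free of histone genes if the order is the same in GRCh37.

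Promoter sequences of GRCh38.p14, from 250 bases before to 50 after each start, were found for 63 of the 68 histone genes. Of these, 4 are shown up to the base before the gene's start, in the direction of the gene, as examples of H2A-H2B and H4 promoters with and without the short elements in capitals. The stretch at chr1:149886683-149886917 (minus strand) lies between the starts of H2BC21 and H2AC20, an H2B and an H2A gene read in opposite directions. It holds the only CArG box found in the histone promoters. In all 4, capitals mark the CArG box, the octamer ATTTGCAT, TATAAA or CCAAT on either strand. The stretch at chr6:26216689-26216920 (minus strand) between H2BC8 and H2AC8 is another such shared promoter, with an octamer and a TATA box in the direction of H2BC8 and no TATAAA in that of H2AC8. H4C4 at chr6:26189113-26189362 (minus strand) holds TATAAA and no CCAAT. H4C14 at chr1:149832407-149832656 (plus strand) holds none of these elements, and its whole window was identical to that of H4C15.
H2BC21 and H2AC20: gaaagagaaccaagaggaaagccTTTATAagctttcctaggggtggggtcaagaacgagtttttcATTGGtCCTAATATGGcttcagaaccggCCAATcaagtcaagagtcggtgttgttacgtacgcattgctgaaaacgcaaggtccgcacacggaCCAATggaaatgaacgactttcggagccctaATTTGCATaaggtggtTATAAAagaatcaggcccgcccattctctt
H2BC8 and H2AC8: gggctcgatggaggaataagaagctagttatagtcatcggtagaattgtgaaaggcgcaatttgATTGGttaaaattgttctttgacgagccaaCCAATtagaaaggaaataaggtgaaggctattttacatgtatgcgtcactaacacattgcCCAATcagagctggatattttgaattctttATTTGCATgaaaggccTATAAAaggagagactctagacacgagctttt
H4C4: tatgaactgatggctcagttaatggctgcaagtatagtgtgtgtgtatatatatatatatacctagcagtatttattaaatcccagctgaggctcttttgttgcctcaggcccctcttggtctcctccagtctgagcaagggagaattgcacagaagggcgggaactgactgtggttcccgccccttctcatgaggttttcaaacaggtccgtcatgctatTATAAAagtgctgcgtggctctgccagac
H4C14: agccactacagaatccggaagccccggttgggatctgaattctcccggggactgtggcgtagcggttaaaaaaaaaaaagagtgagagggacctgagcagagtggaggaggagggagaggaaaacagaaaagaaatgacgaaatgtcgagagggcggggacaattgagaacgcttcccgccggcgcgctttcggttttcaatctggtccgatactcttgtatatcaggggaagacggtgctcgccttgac

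The families differed in the short elements of their promoters. The motifs were searched on both strands of the 300-base windows, as TATAAA, as CCAAT, as the octamer ATTTGCAT (the site of Oct-1, an activator of H2B genes) and the CArG box. The TATA box was found in 42 of the 63 histone genes, against 14% of 27305 genes with a promoter sequence. A match in a shared promoter can count for both genes, as that of H2BC8 does for H2AC8. A motif counted as found in the window of any annotated start of a gene, while positions and strands were taken at 1 start per gene. In the direction of the gene the TATA box began a median of 30 bases before the start in H1 and H2B genes and 31 bases in H2A, H3 and H4 genes. CCAAT was found in all 6 H1, 16 H2A, 18 H2B and 11 H3 genes with a sequence but in 3 of 12 H4 genes, against 39.7% of all genes. The octamer was found in 14 of 18 H2B genes and 11 of 16 H2A genes, in 1 of 11 H3 genes and in none of the 6 H1 or 12 H4 genes, against 2.19% of all genes. The H3 gene is H3C4, 1 of whose annotated starts has the same window as the H2A gene H2AC7, so that match is counted in both families. In H2B genes the octamer lay in the direction of the gene in 13 genes, a median of 49 bases before the start. It began 104 to 123 bases before the start in H2BC1, H2BC3, H2BC4, H2BC6 and H2BC7, and 45 to 49 bases in the others. In H2A genes the octamer lay in the direction of the gene in 1 gene, and the other matches lay on the opposite strand. In shared H2A-H2B promoters the same site was counted for both genes, as with H2BC8 and H2AC8 or H2BC21 and H2AC20. The H2A and H2B matches are therefore not all separate sites, and separate sites were not counted.

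The CArG box was found in 2 of the 63 histone genes, H2BC21 and H2AC20, against 1.6% of all genes, and both share the 1 site CCTAATATGG shown above. It begins 164 bases before the start of H2BC21. The count of 1 shared site is near the background share and says nothing about binding. Whether any summit of HIST2 lies in this promoter was not tested, since the builds differ.

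**Figure D1:**
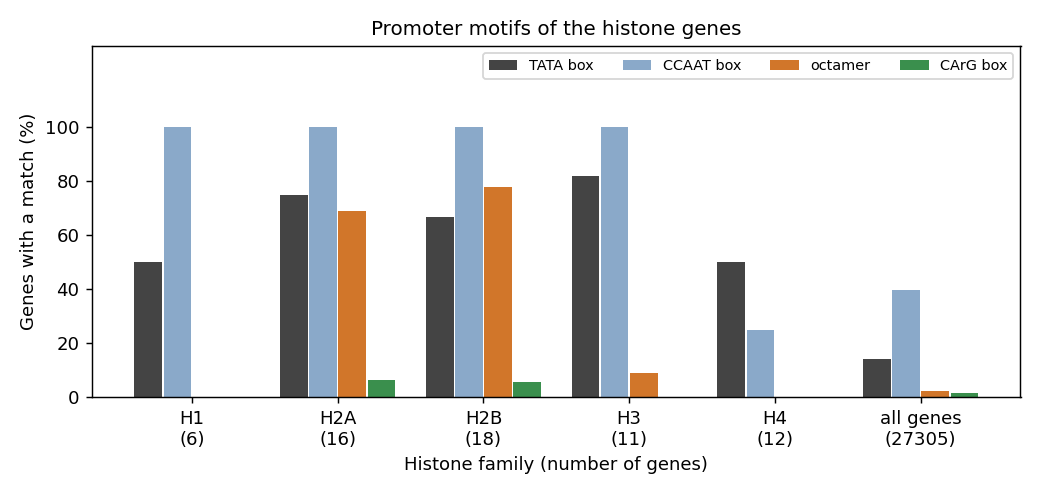
Share of genes with each motif in the 300-base promoter window (percent, vertical axis) for the 5 histone families and for all genes with a sequence, with the number of genes in brackets. The octamer stands out in H2A and H2B genes (11 of 16 and 14 of 18), CCAAT is found in all genes of every family but H4, and the CArG box is found in 1 H2A and 1 H2B gene. A site in a shared promoter can be counted for both of its genes.

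Summits were denser in all 3 histone clusters than over their chromosomes. The first part of HIST1 held 63.3 summits per Mb (exact Poisson 95% interval 38.1 to 98.9) and the second part 77.8 (42.5 to 130.5), where chromosome 6 held 22.5 over its covered sequence. These are 2.82 times (1.70 to 4.40) and 3.46 times (1.89 to 5.80) the chromosome's density. HIST2 held 144 summits per Mb (76.9 to 247) against 35.7 on chromosome 1, which is 4.04 times (2.15 to 6.91). Covered sequence is the span between the outermost summits without stretches of at least 1 Mb that hold none.

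Against windows of equal length the clusters stood in the upper tail, but windows as full as either HIST1 part were not rare. All windows stepped by 10 kb along the covered sequence of the same chromosome were counted in place of a random draw, leaving out those that touch a cluster. At least 19 summits, the count of the first part, were found in 1208 of 16611 windows of 300 kb on chromosome 6 (7.27%), whose median was 5 and whose fullest held 34. At least 14 summits, the count of the second part, were found in 731 of 16659 windows of 180 kb (4.39%), with a median of 3 and a maximum of 24. At least 13 summits, the count of HIST2, were found in 154 of 22782 windows of 90 kb on chromosome 1 (0.676%), with a median of 3 and a maximum of 22. The windows overlap and neighbours share summits, so these shares are descriptions of the list and not p-values. Among windows of the same chromosome arm alone the shares were 13.4%, 7.95% and 1.27%, and over the top 25% of scores alone they were 11.6%, 9.20% and 20.1%. With bounds moved outward by 20 kb the share was 7.59% for the second part of HIST1 and 1.39% for HIST2. With windows that do not overlap the shares were 7.22%, 4.22% and 0.671%, and with windows anywhere on the chromosome 7.13%, 4.30% and 0.619%. The place of each cluster therefore moved with the arm, the scores kept and the bounds, and little with these other window settings.

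**Figure D2:**
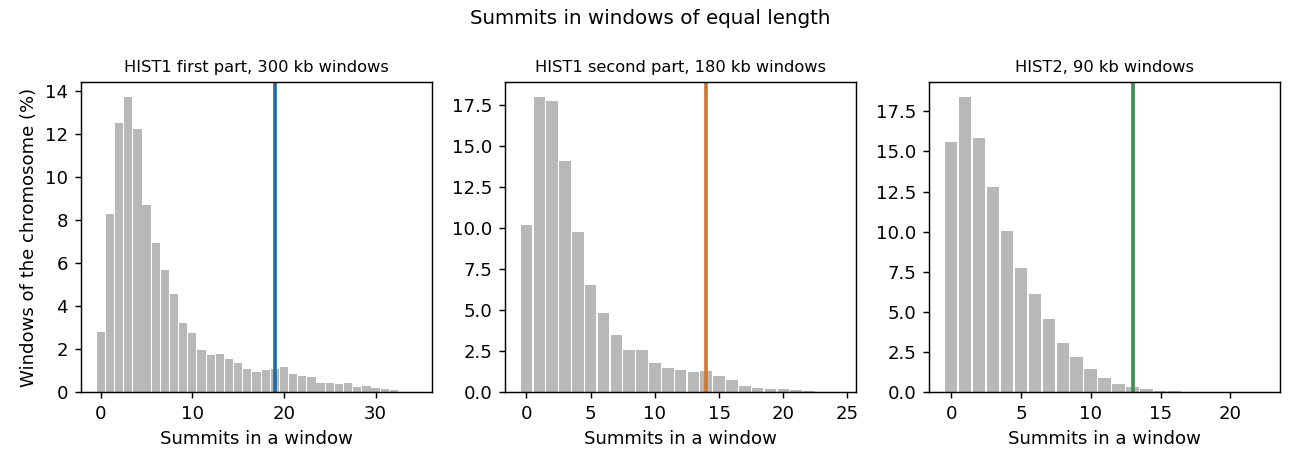
Percent of windows of the same chromosome (vertical axis) by the number of summits they hold (horizontal axis), for windows as long as each cluster, with the cluster's own count as a vertical line. The lines stand at 19, 14 and 13 summits, in the upper tail of each distribution, with the HIST2 line farthest out.

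The place of HIST2 rested on summits that lie close together. In HIST2, 11 of 13 summits had another one under 2 kb away (84.6%, exact Clopper-Pearson 95% interval 54.6 to 98.1), against 22.2% of all nuclear summits and 19.6% on chromosome 1. In the first part of HIST1 the count was 2 of 19, and in the second part it was 0 of 14, which allows a share of up to 21.4% by 3 counts of the total (23.2% as the upper exact limit). Counting at this distance was chosen after the positions had been seen, while the merging below was planned. Closeness is mutual, so close summits are not independent, and the interval for HIST2 understates the uncertainty. When summits under 2 kb apart were merged, HIST2 fell to 6 groups and 66.7 per Mb, and 15.4% of windows then held at least as many. Merging left 7311 of 8154 summits on chromosome 1, so the merged density is not to be set against the unmerged one of the chromosome. The merged counts were 18 in the first part of HIST1 and 14 in the second part, where 6.10% and 2.09% of windows held at least as many.

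The first part of HIST1 was uneven along its length. Of its 19 summits, 2 lay in its first 100 kb, 8 in the next and 9 in the last. The first pair, at positions 26018110 and 26020817, had scores of 6.85 and 5.07. A stretch of 104 kb without a summit followed, up to position 26124653, the longest within any of the 3 clusters. From there to 26272572 summits followed each other closely, and the median spacing over the whole part was 7.71 kb. No further summit was found over 229376 bp after the last one. Flanks of 300 kb held 5 summits before the first part and 8 after it, against 19 inside.

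The score of a summit is a value that the authors' caller assigned; the file names no unit for it, and it only ranks summits within this list. The highest scores of the first part were at 26272572 (16.6), 26271460 (13.6) and 26254455 (13.5). The 2 highest form the closest pair of that part, 1112 bp apart at its upper end. The lowest was 4.61, at 26240103. Only 1 other summit of this part, at 26149297 with 13.5, was in the top 25% of scores, which begins at 12.2.

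The second part of HIST1 held 14 summits, none under 2 kb from another, with a median spacing of 10.96 kb. Its first and last summits were at 27702104 (score 4.94) and 27874471 (5.64). Its highest score, 20.6 at 27725275, was also the highest of all 3 clusters and ranked 5971 in the nuclear list. The next were 15.3 at 27730552 and 15.0 at 27795769. The first of these 2 lay 5277 bp from the highest one and was followed by the longest empty stretch of the part, 45.6 kb up to 27776167. The closest pair, at 27821298 and 27824681, was 3383 bp apart, and the lowest score was 4.89 at 27832014. Flanks of 180 kb held 11 summits before this part and 5 after it, so that the side toward the first part was nearly as full as the part itself.

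HIST2 held its 13 summits in 6 groups. A pair at 149783593 and 149784937 began the cluster and held its highest score, 15.8, and the third highest, 11.9. A single summit with a score of 9.77 followed at 149804454. A group of 4 spanned 2992 bp from 149811906 to 149814898 with scores from 6.64 to 9.22, and it held the closest pair, 537 bp apart. A group of 3 spanned 1842 bp from 149822838 to 149824680 and held the lowest score, 6.02, beside 6.59 and 6.92. After 34.0 kb without a summit, the longest such stretch in HIST2, a pair at 149858705 and 149859341 had scores of 12.7 and 10.9. The last summit, at 149864727, scored 10.4. The groups of 4 and 3 scored from 6.02 to 9.22 and the remaining summits from 9.77 to 15.8, a contrast picked after the values were seen. How often such a split occurs elsewhere in the list was not counted. Flanks of 90 kb held 3 summits before HIST2 and 10 after it.

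**Figure D3:**
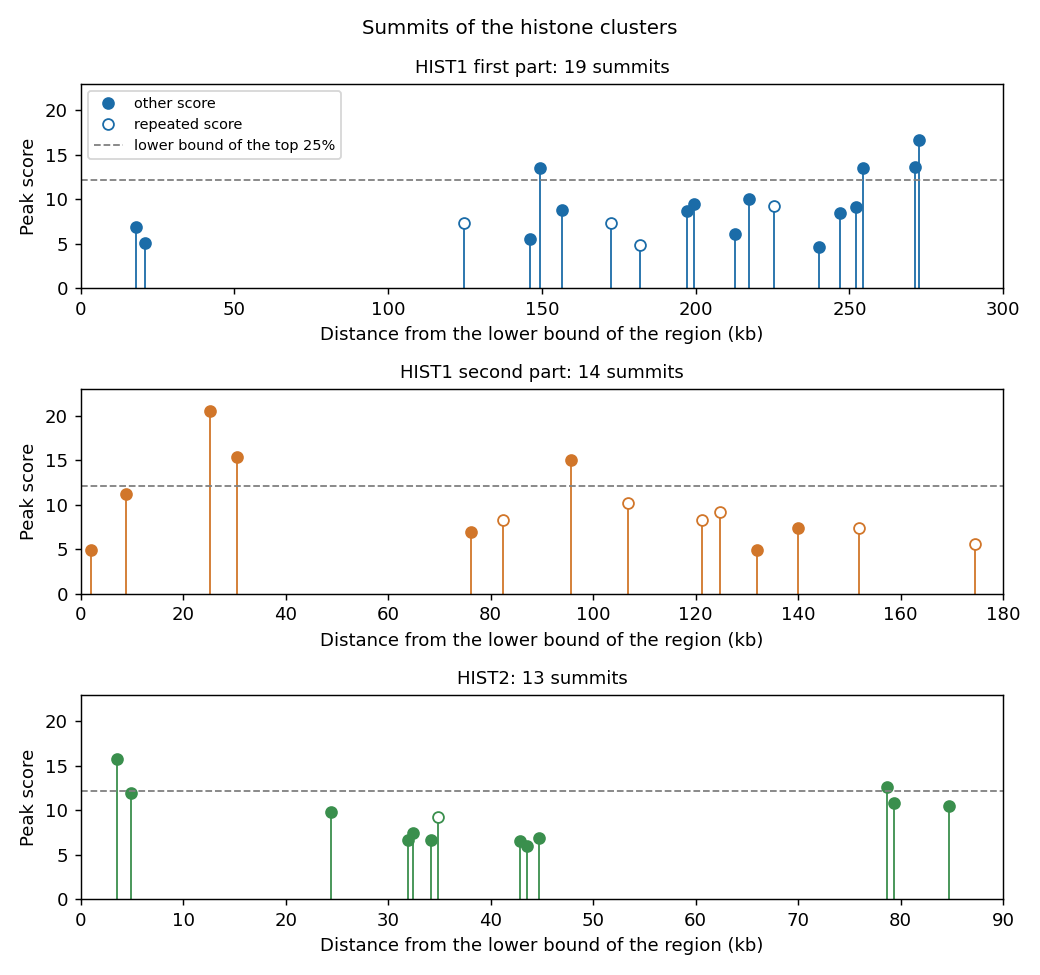
Peak score (vertical axis, the caller's own value) of each of the 46 summits against its distance in kb from the lower bound of its region, with open circles for scores shared by at least 150 summits of the list and a dashed line at 12.2, the lower bound of the top 25%. The first part of HIST1 is nearly empty over its first 100 kb, the second part has its longest empty stretch of 45.6 kb in its lower portion, and 11 of the 13 summits of HIST2 have another under 2 kb away.

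The sequence between the HIST1 parts was itself denser than the chromosome, and for each part alone the interval of the ratio to it included 1. It held 59 summits over 1400 kb, or 42.1 per Mb (32.1 to 54.4), which is 1.87 times (1.43 to 2.42) the density of chromosome 6. In the first part the density was 1.50 times that of the sequence between (exact conditional 95% interval 0.846 to 2.56) and in the second part 1.85 times (0.952 to 3.35), so neither part alone was shown to be denser. Without repeated scores, described below, the ratio was 2.26 (1.13 to 4.31) in the first part and 2.01 (0.797 to 4.46) in the second. That setting was added after seeing the data. With summits under 2 kb apart merged, the ratio was 1.53 (0.844 to 2.64) in the first part and 1.98 (1.02 to 3.61) in the second. With bounds moved outward or inward, or with only the top scores kept, the intervals of both parts included 1. For both parts together, 33 summits over 480 kb, the ratio was 1.63 (1.03 to 2.54). Windows of 1400 kb with at least 59 summits made up 13.4% of those on chromosome 6.

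In bins of 100 kb the sequence between ranged from 0 to 10 summits with a median of 4. The fullest bin, 27100001 to 27200000, held 10, more than any 100 kb bin of the first part, and the strongest summit of the sequence between lay in it, at 27162930 with a score of 32.3. Whether this bin holds any of the histone genes between the large runs was not tested, since the builds differ. The 2 bins right after the first part were empty. Density along this stretch of chromosome 6 therefore did not step at the lower bound of the second part, whereas it dropped to 0 right after the first part.

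**Figure D4:**
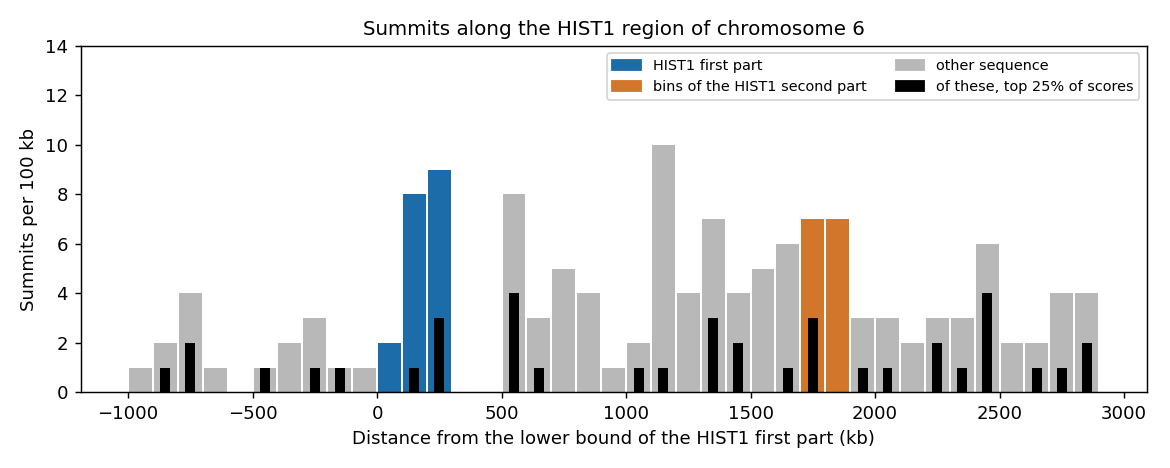
Summits per 100 kb (vertical axis) along chromosome 6, as distance in kb from the lower bound of the first part of HIST1, with black bars for summits in the top 25% of scores. The last 2 bins of the first part hold 8 and 9 summits, both bins that follow hold none, and a grey bin of the sequence between reaches 10; the second orange bin runs past the upper bound of the second part.

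Scores in the histone clusters lay close to those of the list as a whole. The median score was 8.65 in the first part of HIST1 (quartiles 6.45 and 9.71), 8.28 in the second part (7.04 and 10.9) and 9.22 in HIST2 (6.64 and 10.9). It was 8.28 in the sequence between the parts, 8.28 on chromosome 6 and on chromosome 1, and 8.50 over all nuclear summits. The top 25% of scores, from 12.2 upward, held 4 of 19 summits (21.1%, 6.05 to 45.6), 3 of 14 (21.4%, 4.66 to 50.8) and 2 of 13 (15.4%, 1.92 to 45.4). Over the whole nuclear list the share was 26.3%, above 25% because of tied scores, and in the sequence between it was 22.0% (12.3 to 34.7). All 3 intervals hold the share of the list, and with 13 to 19 summits a cluster a difference of this size was not detectable.

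No summit of the clusters reached a score of 30. Such scores were rare in the whole list, where 32.3 ranked 731 and 23.7 ranked 3292 of 105629 nuclear summits. Their absence is therefore not read as a trait of the clusters. The top 10% of the list held 0 of 19 summits in the first part, 1 of 14 in the second part and 0 of 13 in HIST2. A count of 0 allows a share of up to 15.8% in the first part and 23.1% in HIST2 by 3 counts of the total (17.6% and 24.7% as the upper exact Clopper-Pearson limits), above the 10.0% of the list.

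**Figure D5:**
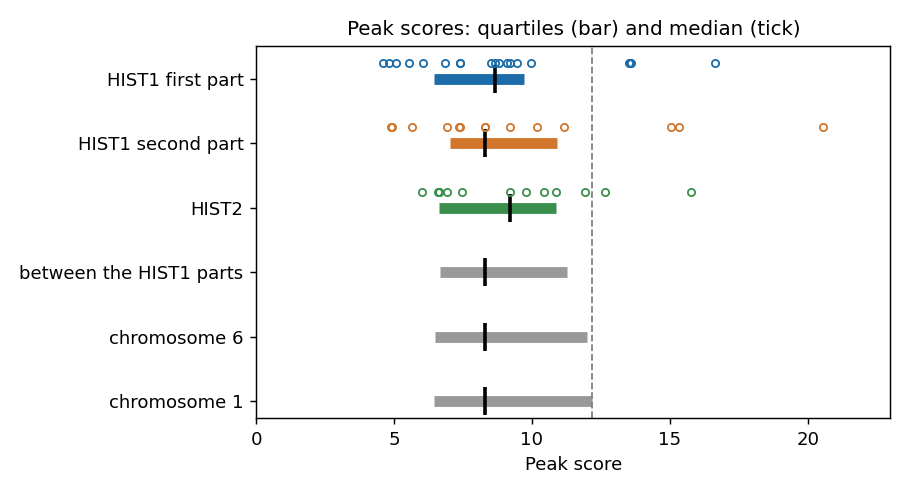
Peak scores (horizontal axis) of the 3 clusters, the sequence between the HIST1 parts and both chromosomes, with bars from the lower to the upper quartile, ticks at the median, circles for each summit of a cluster and a dashed line at 12.2. The medians run from 8.28 to 9.22, and 9 of the 46 circles lie to the right of the line.

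Some scores recur to the last digit across the list, and each cluster held from 1 to 6 summits with such a score. Such repeated scores were defined as values shared by at least 150 nuclear summits, of which there are 19. They were carried by 4 of 19 summits in the first part of HIST1 (21.1%, 6.05 to 45.6), 6 of 14 in the second part (42.9%, 17.7 to 71.1) and 1 of 13 in HIST2 (7.69%, 0.195 to 36.0). The share was 29.4% over all nuclear summits, 40.9% on chromosome 6, 29.8% on chromosome 1 and 47.5% in the sequence between (34.3 to 60.9). The score 7.37, shared by 4026 summits of the list, occurred at 26124653 and 26172552 in the first part and at 27851943 in the second. The score 9.22, shared by 3234, occurred once in each cluster. The intervals of the clusters overlap one another, so the order of these shares was not resolved at this number of summits.

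Most summits of the clusters had a neighbour within 10 kb. The count was 18 of 19 in the first part of HIST1 (94.7%, 74.0 to 99.9), 10 of 14 in the second (71.4%, 41.9 to 91.6) and 13 of 13 in HIST2 (75.3% to 100%), against 64.1% of all nuclear summits. The share was 51.9% on chromosome 6, 60.2% on chromosome 1 and 69.5% in the sequence between. Within 5 kb the share was 14.3% in the second part (1.78 to 42.8) and 63.2% in the first (38.4 to 83.7). Chromosome 6 had 30.1%, which lies inside the interval of the second part and below that of the first. Neighbours follow from density, and they were not compared at equal density. Being a neighbour is mutual, so these intervals understate the uncertainty as well.

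Some histone genes of these runs have near-identical promoter copies. The windows were compared within each family without gaps, at the best of all offsets of up to 50 bases. Only 1 annotated start per gene was compared, which for H3C4 was the start whose window is the same as that of H2AC7. Of 409 pairs, 4 were at least 90% identical, and 3 of these are gene pairs of the main run on chromosome 1. H4C14 and H4C15 were identical over 300 bases, H2AC18 and H2AC19 over 299 bases at an offset of 1, and H3C14 and H3C15 over 296 bases at an offset of 4. On chromosome 6, H4C11 and H4C12 were 98.3% identical, H2AC13 and H2AC14 84.0%, and H2BC13 and H2BC14 79.3%. All other pairs within a family were at most 61.3% identical under these offsets. Where reads of such copies were placed is not stated in the labels or the list, and its part in the summit counts was not tested.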

How the data were processed

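Chromatin of A549 cells overexpressing MYOCD was precipitated with anti-Myocardin or IgG (1 library each), per the labels. The authors deposited 1 list for the series with a peak score per row; the intervals are 1 bp wide, and per the file headers no column belongs to a sample. The score carries no stated unit. Other values in that deposited list are positions (the End column). Not given in the sources used here are the caller's version and threshold, the aligner, the handling of duplicates, the use of IgG and the depth. The submitters' processing notes list CASAVA 1.4 and the assemblies mm9 and GRCh38.p12. Positions past a chromosome end numbered 0 for GRCh37, 1093 for GRCh38, 1667 for hg18 and 13627 for mm9, with lengths from R's GenomeInfoDb tables, so GRCh37 was used.

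Summits were counted with Python 3.11.15, numpy 2.4.6, pandas 2.3.3 and scipy 1.17.1. Regions and lists were chosen with earlier results of these data known. Summits named by position were those with the 3 highest scores and the lowest score of each cluster, its first and last, its closest pair and its longest empty stretch; others, and the share of summits within 2 kb, the gene runs and the motifs, were chosen after seeing the data. No test between libraries was possible. The interval and window procedures were tested on simulated lists with summits placed uniformly at random along chromosome 6. The real list is more crowded in places, with 0 to 34 summits in 300 kb windows of that chromosome. The simulation therefore checks the code and cannot show that the intervals hold for this list. The share of each score threshold was taken over 105629 nuclear summits, without 8 mitochondrial ones. Columns of per-sample values left out numbered 0.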

Additional observations from a re-analysis of the deposited data

How the results depend on the processing

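Of 64 alternatives over 17 results, 38 stayed within the 95% interval of the value (for medians, between its quartiles) and 26 moved outside it; for the shares of windows that interval is very narrow, because it treats overlapping windows as independent. With the top 25% of scores only, density was 13.3, 16.7 and 22.2 per Mb in the first part of HIST1, the second part and HIST2, and 11.6%, 9.20% and 20.1% of windows held at least as many summits. With summits under 2 kb apart merged, HIST2 had 66.7 per Mb, and the shares of windows were 6.10%, 2.09% and 15.4%. With bounds moved outward by 20 kb the shares were 8.58%, 7.59% and 1.39%, and moved inward 5.80%, 4.44% and 0.873%. Without repeated scores, an alternative added after seeing the data, they were 7.82%, 9.83% and 0.838%. Within the same chromosome arm they were 13.4%, 7.95% and 1.27%. In windows that do not overlap they were 7.22%, 4.22% and 0.671%, and in windows anywhere on the chromosome 7.13%, 4.30% and 0.619%. In the top 10% of scores the share was 0% in the first part and in HIST2. A neighbour was found within 5 kb for 63.2% in the first part (38.4 to 83.7) and 14.3% in the second (1.78 to 42.8). Chromosome 6 had 30.1%. Within 20 kb the share was 92.9% in the second part (66.1 to 99.8), against 70.7% on chromosome 6. The ratios to the sequence between the HIST1 parts ran from 1.36 to 2.26 in the first part and from 1.47 to 2.01 in the second. All were above 1, but these alternatives reuse the same summits. The 95% interval excluded 1 only in the first part without repeated scores (1.13 to 4.31) and in the second part with close summits merged (1.02 to 3.61). Density can only fall where summits are left out or merged. A top 10% share cannot exceed the top 25% share, and neighbour shares can only rise with distance. Such moves follow from the settings, and the cause of the other moves was not tested. No paired analysis was possible because the list holds no value per library, and no replicate could be left out, since each antibody has 1 library. The number of summits in each cluster, and not a known read depth, limits the precision.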

Other observations

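Other windows of the same chromosomes were fuller than the histone clusters, and they were named after their counts were seen. On chromosome 6 the fullest 300 kb window without overlap to a cluster ran from 31674502 to 31974501 and held 34 summits, as did the one from 166614502 to 166914501, against 19 in the first part of HIST1. A window from 2884502 to 3184501 held 32. Among windows of 90 kb on chromosome 1, the one from 161362495 to 161452494 held 22 summits, the one from 156812495 to 156902494 held 19 and the one from 16942495 to 17032494 held 17, against 13 in HIST2. Positions are in GRCh37, and no gene is assigned to them.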
